A study of Mus musculus with 28 samples.

Results

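The sterol and fatty acid synthesis genes are 31 named genes taken by symbol from the 31053 genes with counts in the series, and 30 of them were among the 11080 genes with enough counts to test. By role they are 8 genes of the mevalonate and isoprenoid steps, 11 of the steps from squalene to cholesterol, 5 of sterol sensing and transport, and 7 of fatty acid synthesis. The cells were E14 mouse embryonic stem cells, and their RNA was measured by 3′ digital gene expression, a sequencing method that reads the ends of polyadenylated transcripts. All cells were grown in N2B27, a serum-free medium. The 2iL group was kept in 2iL, which is CHIR99021 at 3 uM (an inhibitor of GSK3), PD0325901 at 1 uM (an inhibitor of MEK) and the cytokine LIF. The 24 h, 48 h, 96 h and 120 h groups had been in N2B27 without 2iL for those times, and the 48 h + 2iL and 96 h + 2iL groups had been without 2iL for 48 or 96 h and then had it back for 24 h. Each of the 7 groups has 4 libraries, numbered by experiment 1 to 4, 28 in all. E14 is a single cell line and the labels name no animals or separate derivations, so p-values measure the spread between these libraries.

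Cells make cholesterol from acetyl-CoA. The mevalonate steps give isoprenoid units, which are joined to farnesyl diphosphate and then to squalene, and squalene is closed to lanosterol and trimmed to cholesterol. The transcription factor encoded by Srebf2 is held in the endoplasmic reticulum with the escort Scap and the anchor Insig1 while sterols are plentiful, and when they run short it is cut free and activates the genes of this route, while Srebf1 acts more on fatty acid synthesis.

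Each library held between 1554830 and 2828694 counts in genes. The summed level of 6 naive pluripotency markers fell from 1600 to 1860 CPM in the 2iL libraries to 47.7 to 62.3 CPM at 120 h, and 6 formative markers summed to 146 to 212 CPM in 2iL, 1730 to 2390 CPM at 48 h and 1320 to 2400 CPM at 96 h. Neural progenitor markers summed to 13.5 to 24 CPM in 2iL and to 219 to 625 CPM at 120 h. CPM is the count scaled to library size, here after TMM normalization. The 96 h + 2iL libraries of experiments 3 and 4 stood apart from those of experiments 1 and 2. Their naive marker sums were 62.8 and 183 CPM against 387 and 371 CPM. Their neural progenitor sums were 795 and 461 CPM against 161 and 224 CPM. Neural progenitor sums also differed between experiments without 2iL. In experiments 1 to 4 they were 135, 82.1, 292 and 127 CPM at 96 h. At 120 h they were 219, 275, 625 and 422 CPM. The changes named for 96 h + 2iL are therefore also given without both of its libraries of experiments 3 and 4. The groups it is compared with keep all 4 experiments there. In bulk libraries fewer cells of a type and less RNA per cell cannot be told apart. The part of these marker changes in the values of the sterol genes was not tested.

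After 2iL was withdrawn, most genes of cholesterol synthesis rose, and most of those of fatty acid synthesis did not. Summed over the 8 mevalonate and isoprenoid genes, the level was 655 ± 90.8 CPM in 2iL (SD, n = 4), 975 ± 214 CPM at 24 h, 1380 ± 212 CPM at 48 h, 1970 ± 89.6 CPM at 96 h and 1760 ± 147 CPM at 120 h. The 11 genes from squalene to cholesterol summed to 527 ± 67.5 CPM in 2iL, 1140 ± 101 CPM at 96 h and 1040 ± 85.9 CPM at 120 h. In both groups every library of 48 h, 96 h and 120 h lay above every 2iL library. The 7 fatty acid genes summed to 1280 ± 37.5 CPM in 2iL, 1090 ± 101 CPM at 24 h and 1450 ± 97.9 CPM at 96 h. Their 24 h libraries all lay below 2iL, their 96 h libraries all lay above it, and those of 48 h and 120 h overlapped. The 5 sensing and transport genes summed to 229 ± 50.2 CPM in 2iL and 294 ± 19.5 CPM at 96 h.

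**Figure D1:**
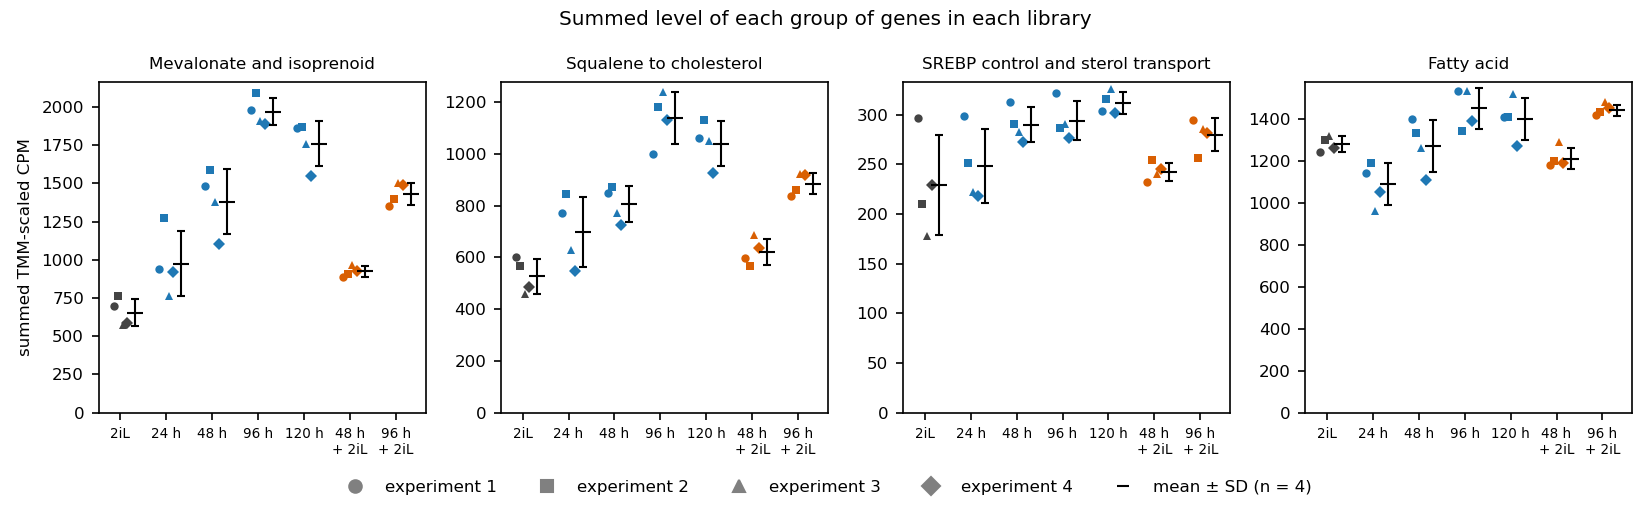
Summed TMM-scaled CPM of the genes of each role (vertical axes from 0) in each library, with groups on the horizontal axis, symbols for the 4 experiments, and mean ± SD (n = 4) beside them. The mevalonate sum rises from 572 to 761 CPM in 2iL to 1890 to 2090 CPM at 96 h and lies at 887 to 969 CPM in 48 h + 2iL. The fatty acid sum stays between 959 and 1530 CPM, with 1240 to 1320 CPM in 2iL and 1340 to 1530 CPM at 96 h.

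The comparisons of each withdrawal time with 2iL share the 2iL libraries, so their counts are not independent. Each change below is given on the log2 scale ± its standard error (n = 4 libraries a group), and a gene is said to have risen or fallen where its edgeR quasi-likelihood p, adjusted by Benjamini-Hochberg over all 11080 genes, was under 0.05. At 24 h 8 of 30 members rose and 1 fell, while 7.68% of all genes tested rose and 8.29% fell. At 48 h 15 rose and 3 fell, against 14.6% and 13.2% of all genes. At 96 h 16 rose and 1 fell, against 21.9% and 19.2%. At 120 h 19 rose and 2 fell, against 24.6% and 22.6%. The risers were mostly enzymes of the cholesterol route: at 96 h they were 6 of 7 mevalonate genes, 7 of 11 squalene to cholesterol genes, 2 of 5 sensing and transport genes and 1 of 7 fatty acid genes. The median change at 96 h was 1.49 for the mevalonate genes, 1.23 for the squalene to cholesterol genes, 0.19 for the sensing and transport genes and 0.03 for the fatty acid genes, beside 0.02 for all genes.

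**Figure D2:**
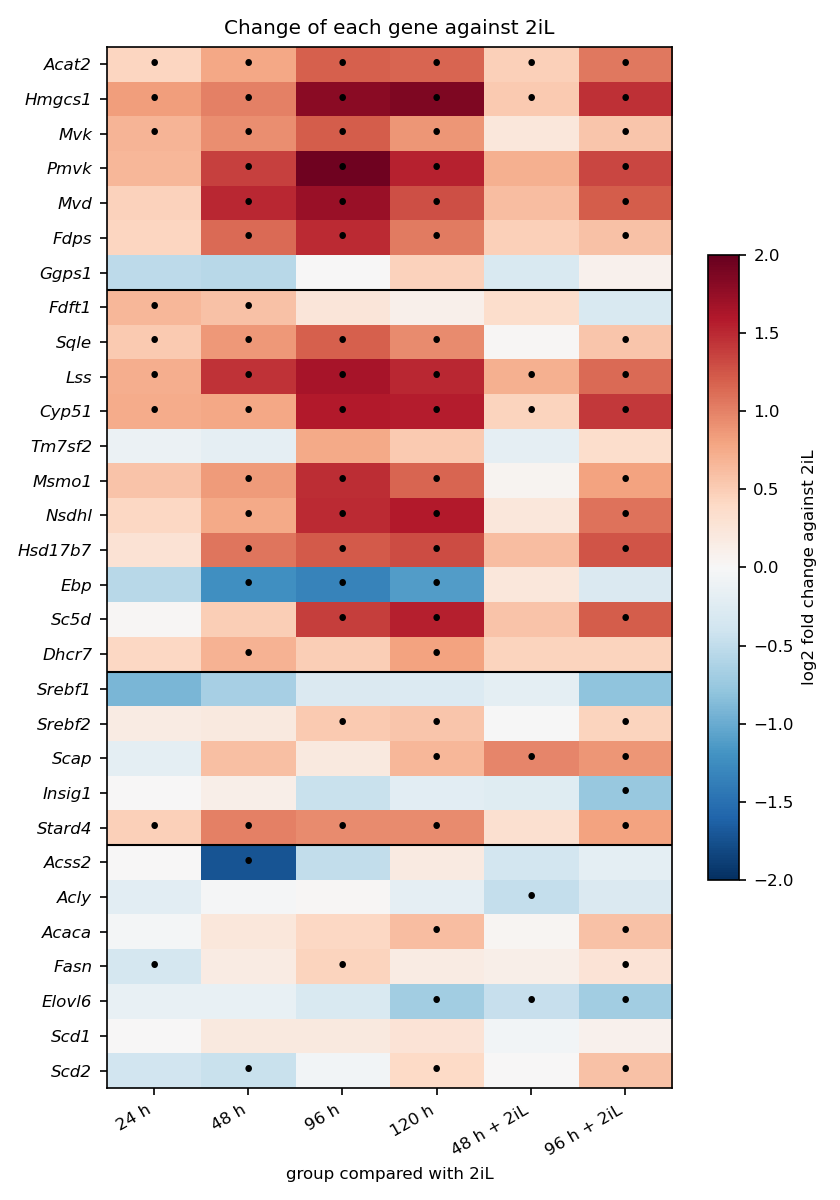
Log2 fold change of each of the 30 tested members (rows, ordered by role and separated by lines) in each group against 2iL (columns), as colour, with a dot where the adjusted p was under 0.05. Dots fill most of the upper blocks at 96 h and 120 h, where Hmgcs1 reaches 1.81 and 1.86, and Ebp stands out in blue at -1.33 and -1.12.

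The 24 h counts were the least firm, since without the 2iL library of experiment 3 only 3 members rose and none fell, and without the 2iL library of experiment 4 or the 24 h library of experiment 2 there were 5 calls. The calls of Hmgcs1, Sqle and Cyp51 at 24 h and all 17 calls at 96 h held under every alternative run.

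Hmgcs1 (chromosome 13, 119690379 to 119708260), the cytosolic synthase that forms HMG-CoA, had the smallest adjusted p of all members at every withdrawal time. It read 261, 204, 208 and 204 CPM in the 2iL libraries of experiments 1 to 4, and 417, 390, 369 and 387 CPM at 24 h. It then reached 372, 399, 540 and 454 CPM at 48 h, 688, 737, 892 and 756 CPM at 96 h, and 808, 835, 778 and 757 CPM at 120 h. Every library of a withdrawal time was higher than every 2iL library, and the 96 h and 120 h libraries lay above all those of 24 h and 48 h. The change against 2iL was 0.83 ± 0.14 at 24 h (adjusted p = 3.92e-05), 1.81 ± 0.14 at 96 h (adjusted p = 3.23e-12) and 1.86 ± 0.14 at 120 h (adjusted p = 1.49e-12), a 3.62-fold rise by 120 h. From 48 h to 120 h it rose by 0.85 ± 0.13 (adjusted p = 7.95e-06).

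Mvk, Pmvk and Mvd carry mevalonate through its phosphorylations to isopentenyl diphosphate. Pmvk read 33.8, 70.4, 22.9 and 25 CPM in 2iL and 158, 149, 150 and 133 CPM at 96 h. The 2iL library of experiment 2 was well above the other 3, yet below every 96 h library. Pmvk rose by 1.37 ± 0.28 at 48 h (adjusted p = 0.000281), 1.95 ± 0.27 at 96 h (adjusted p = 7.23e-07) and 1.54 ± 0.28 at 120 h (adjusted p = 2.35e-05). At 24 h its change was 0.66 (adjusted p = 0.114), and with the experiment as a block it was 0.68 (adjusted p = 0.0243). Mvd read 134, 170, 101 and 97.1 CPM in 2iL, and 482, 469, 266 and 197 CPM at 48 h. Its 48 h libraries spread widely, the lowest still above the highest of 2iL, and the change was 1.5 ± 0.28 (adjusted p = 0.000107), with 1.72 ± 0.28 at 96 h (adjusted p = 7.92e-06). Mvk read 34.8, 45.9, 23.7 and 29.5 CPM in 2iL and 61.9, 83.3, 76.3 and 87.2 CPM at 96 h, with no overlap between the groups, a rise of 1.21 ± 0.18 (adjusted p = 1.45e-06). Its 24 h rise of 0.68 ± 0.18 (adjusted p = 0.00845) was lost without the 2iL library of experiment 3 (adjusted p = 0.0564) or the 24 h library of experiment 2 (0.0741).

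Acat2, the thiolase that joins acetyl-CoA units at the head of the route, rose from 96.9 ± 4.15 CPM in 2iL to 222 ± 17.4 CPM at 96 h (SD, n = 4), by 1.20 ± 0.13 (adjusted p = 4.32e-09). Its 24 h rise of 0.43 ± 0.13 (adjusted p = 0.0216) was lost without any of 4 of the 8 libraries, with an adjusted p of up to 0.144 without the 24 h library of experiment 2. Fdps, which makes farnesyl diphosphate, read 105, 153, 79.7 and 98.8 CPM in 2iL and 320, 352, 247 and 311 CPM at 96 h. All 96 h libraries were above all 2iL libraries, and the rise was 1.49 ± 0.20 (adjusted p = 2.27e-07). Its counts are uncertain because exons of Gm43738 lie on the same strand within 300 bases of its 3′ end. At 24 h Fdps changed by 0.43 (adjusted p = 0.148), or with the experiment as a block by 0.43 (adjusted p = 0.0426). Ggps1, which makes the geranylgeranyl diphosphate used to anchor proteins in membranes, rose at no withdrawal time against 2iL. It read 26.1, 20.6, 39.8 and 31.8 CPM in 2iL, 15.6, 16.3, 28.1 and 20.9 CPM at 48 h, and 32.8, 44.2, 45.5 and 41.5 CPM at 120 h. The 120 h libraries lay above all of 48 h, a rise of 1.03 ± 0.23 (adjusted p = 0.000524), but overlapped with 2iL. Against 2iL it changed by -0.56 ± 0.23 at 48 h (adjusted p = 0.0657, and 0.049 with the experiment as a block). At 120 h its change against 2iL was 0.46 ± 0.22 (adjusted p = 0.0754). It passed there without the 2iL library of experiment 3 (0.67, adjusted p = 0.0187) or the 120 h library of experiment 1 (0.58, adjusted p = 0.0386). Idi1, the isomerase between Mvd and Fdps, had 1 to 10 counts per library and was not tested.

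In the steps from squalene to cholesterol, Sqle, Lss and Cyp51 rose at each withdrawal time from 24 h on. Sqle, the squalene epoxidase, read 103, 88.9, 89 and 101 CPM in 2iL, 121, 166, 141 and 120 CPM at 24 h, 165, 188, 172 and 171 CPM at 48 h, and 199, 250, 213 and 210 CPM at 96 h. No library of a withdrawal time overlapped with 2iL. Its change was 0.53 ± 0.13 at 24 h (adjusted p = 0.00393) and 1.19 ± 0.13 at 96 h (adjusted p = 3.42e-09). Lss, which closes the ring system to lanosterol, read 15.5, 16.3, 9.77 and 9.65 CPM in 2iL, 28, 22.6, 15.8 and 18.7 CPM at 24 h, 33.7, 38, 29.9 and 37.4 CPM at 48 h and 36.7, 38.8, 42.7 and 43 CPM at 96 h. The 24 h library of experiment 3 lay within the range of 2iL, and those of 48 h and 96 h lay above it. Its rise was 0.73 ± 0.21 at 24 h (adjusted p = 0.0165), 1.44 ± 0.21 at 48 h (adjusted p = 1.96e-06) and 1.65 ± 0.20 at 96 h (adjusted p = 5.71e-08). Without the 2iL library of experiment 3 or 4 or the 24 h library of experiment 1 the adjusted p of its 24 h change was 0.0795, 0.0673 and 0.084.

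Cyp51, the lanosterol demethylase, read 81.2, 87.1, 79.3 and 75 CPM in 2iL, 164, 144, 122 and 109 CPM at 24 h, 116, 145, 139 and 153 CPM at 48 h, and 207, 227, 303 and 230 CPM at 96 h. The 24 h and 48 h libraries overlapped with each other, and those of 96 h lay above both and above 2iL. The change was 0.74 ± 0.15 at 24 h (adjusted p = 0.00061), 0.78 ± 0.15 at 48 h (adjusted p = 0.000162) and 1.58 ± 0.15 at 96 h (adjusted p = 2.82e-10). Exons of Akap9 lie on the opposite strand at its 3′ end, so its counts are uncertain if strand was not used. Msmo1, Nsdhl and Hsd17b7 together remove further methyl groups of the sterol. Msmo1 read 190, 151, 94.3 and 103 CPM in 2iL and 349, 422, 354 and 374 CPM at 96 h, without overlap, a rise of 1.48 ± 0.21 (adjusted p = 7.99e-07). At 24 h its change was 0.57 (adjusted p = 0.0616), or 0.56 with the experiment as a block (adjusted p = 0.0107). Nsdhl read 21.7, 15.9, 18.4 and 19.3 CPM in 2iL and 56.7, 68.1, 55.4 and 45.1 CPM at 120 h. These groups lay far apart, with a change of 1.58 ± 0.22 (adjusted p = 2.94e-07). Its 48 h rise of 0.75 ± 0.22 (adjusted p = 0.011) was lost without the 48 h library of experiment 1 (adjusted p = 0.0726). Hsd17b7 rose by 1.07 ± 0.28 at 48 h and 1.31 ± 0.28 at 120 h (adjusted p = 0.0041 and 0.000199).

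Sc5d, the desaturase close to the end of the route, rose late. It read 29.5, 23.6, 25.5 and 19.3 CPM in 2iL, 32.2, 25.9, 29.6 and 11.1 CPM at 24 h, 32.1, 34.6, 40.3 and 31.3 CPM at 48 h, 55, 63.1, 68 and 71.4 CPM at 96 h and 67.1, 85.4, 72 and 64.3 CPM at 120 h. The 24 h libraries spread around those of 2iL. All 48 h libraries lay above all of 2iL, but the change of 0.49 ± 0.22 did not pass (adjusted p = 0.0985). The 96 h and 120 h libraries were above every earlier library. Sc5d passed the test at 96 h (1.39 ± 0.21, adjusted p = 2.5e-06) and at 120 h (1.55 ± 0.21, adjusted p = 2.87e-07), and rose by 1.06 ± 0.21 from 48 h to 120 h (adjusted p = 0.000137). Dhcr7, which reduces the immediate precursor to cholesterol, passed at 48 h (0.70 ± 0.26, adjusted p = 0.0434) and 120 h (0.81 ± 0.26, adjusted p = 0.0103), but not at 96 h (0.49 ± 0.26, adjusted p = 0.131). Its 48 h call was lost without any of 5 of the 8 libraries, with an adjusted p of up to 0.163 without the 2iL library of experiment 4. Its 120 h call was lost without the 120 h library of experiment 3 (adjusted p = 0.0727) or the 2iL library of experiment 4 (0.05). Tm7sf2, a sterol reductase, passed in none of the 12 comparisons (0.76 ± 0.32 at 96 h, adjusted p = 0.059).

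Fdft1, the squalene synthase that commits farnesyl diphosphate to sterols, passed the test at 24 h and 48 h and not later. It read 40.1, 17.2, 19.9 and 19.9 CPM in 2iL, 38.3, 39.1, 45.4 and 29.7 CPM at 24 h, 32.7, 35.5, 48.8 and 28.8 CPM at 48 h and 28, 23.8, 27.5 and 24.6 CPM at 120 h. The 2iL library of experiment 1 was as high as those of 24 h, so the groups overlapped. Its change was 0.66 ± 0.22 at 24 h (adjusted p = 0.0414), 0.59 ± 0.22 at 48 h (adjusted p = 0.0472), 0.24 ± 0.22 at 96 h (adjusted p = 0.41) and 0.10 ± 0.23 at 120 h (adjusted p = 0.736). Both calls were lost without any of 6 of the 8 libraries, with adjusted p of up to 0.159 at 24 h without the 2iL library of experiment 2 and 0.23 at 48 h without the 48 h library of experiment 3. At 96 h Fdft1 read 22, 32.7, 29.2 and 30.4 CPM. Without the high 2iL library of experiment 1 it passed at 96 h as well (0.58, adjusted p = 0.0298). Exons of Ctsb lie on the opposite strand at its 3′ end, which makes its counts uncertain.

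Ebp (chromosome X, 8185329 to 8193512), the isomerase that shifts the ring double bond before Sc5d acts, was the exception in the route and fell. It read 67.2, 103, 83 and 93.1 CPM in 2iL, 52.9, 63.2, 64.9 and 53.9 CPM at 24 h, and 41, 35.5, 33 and 38.6 CPM at 48 h. At 96 h it read 27.1, 25.1, 51.9 and 33.7 CPM and at 120 h 41, 35.8, 37.4 and 45.1 CPM. Every library of a withdrawal time was below every 2iL library. The change was -0.56 ± 0.20 at 24 h (adjusted p = 0.0534, and 0.0482 with the experiment as a block), -1.22 ± 0.21 at 48 h (adjusted p = 2.67e-05), -1.33 ± 0.20 at 96 h (adjusted p = 2.98e-06) and -1.12 ± 0.20 at 120 h (adjusted p = 2.79e-05).

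**Figure D3:**
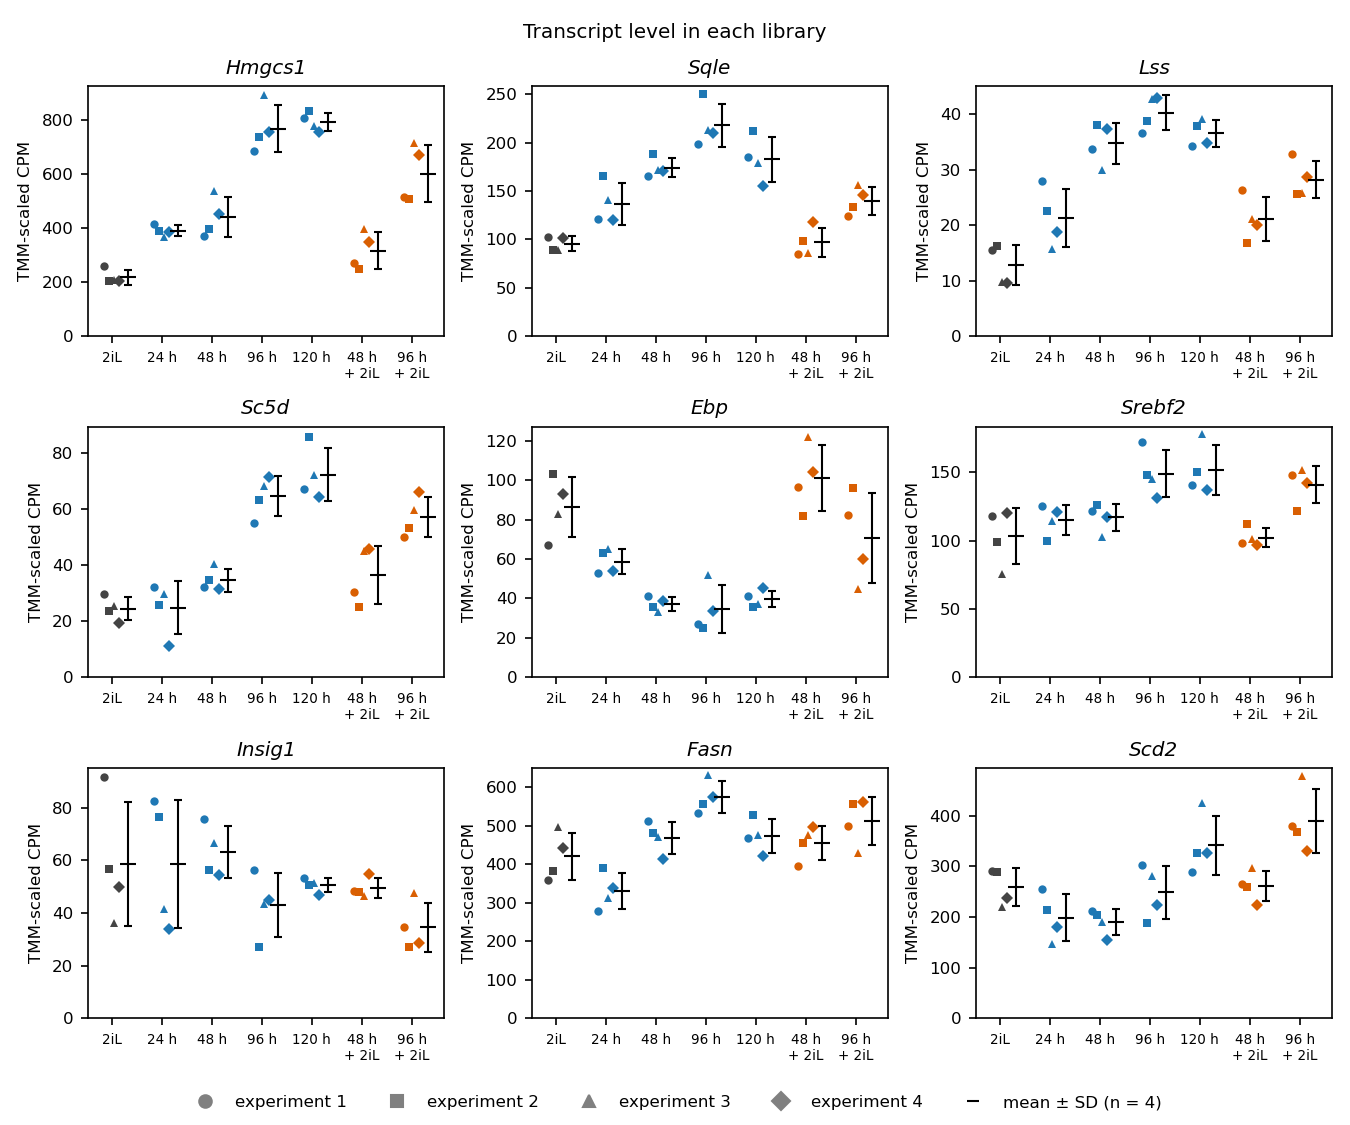
TMM-scaled CPM of 9 members (vertical axes from 0, different scales) in each library of each group (horizontal axis), with symbols for experiments 1 to 4 and mean ± SD (n = 4). Hmgcs1, Sqle and Lss climb from 24 h and Sc5d chiefly from 96 h. Ebp falls and returns to 81.6 to 122 CPM in 48 h + 2iL, and Insig1 shows its widest spread in 2iL and at 24 h.

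The promoters of 5 genes are shown because these behaved differently. Hmgcs1, Cyp51 and Lss rose, Ebp fell, and Fasn was called lower at 24 h and higher at 96 h. They are the 250 bases before the start of each gene from RefSeq on GRCm38.p6, 5′ to 3′ on the strand of the gene. Hmgcs1 is at chr13:119690101-119690350 on the plus strand, Cyp51 at chr5:4104698-4104947 on the minus strand, Lss at chr10:76531355-76531604 on the plus strand, Ebp at chrX:8193513-8193762 on the minus strand and Fasn at chr11:120824548-120824797 on the minus strand. Capitals mark CCAAT, the box bound by the factor NF-Y, on either strand (CCAAT or ATTGG), and in Hmgcs1 also the match to TCACNCCAC, a form of the sterol regulatory element.
Hmgcs1: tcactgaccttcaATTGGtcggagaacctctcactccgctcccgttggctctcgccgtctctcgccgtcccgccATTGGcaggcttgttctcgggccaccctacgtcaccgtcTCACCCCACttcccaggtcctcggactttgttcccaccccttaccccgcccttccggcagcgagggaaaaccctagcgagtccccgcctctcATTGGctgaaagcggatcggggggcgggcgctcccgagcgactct
Cyp51: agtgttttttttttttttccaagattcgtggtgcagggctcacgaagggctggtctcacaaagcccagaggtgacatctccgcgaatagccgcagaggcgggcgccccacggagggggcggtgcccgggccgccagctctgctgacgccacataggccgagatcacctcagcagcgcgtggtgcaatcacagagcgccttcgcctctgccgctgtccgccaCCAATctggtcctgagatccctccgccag
Lss: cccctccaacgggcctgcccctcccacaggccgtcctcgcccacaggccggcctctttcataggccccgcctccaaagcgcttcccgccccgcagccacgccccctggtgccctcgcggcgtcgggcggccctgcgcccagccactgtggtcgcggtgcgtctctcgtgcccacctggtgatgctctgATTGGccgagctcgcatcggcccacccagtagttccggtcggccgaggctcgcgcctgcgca
Ebp: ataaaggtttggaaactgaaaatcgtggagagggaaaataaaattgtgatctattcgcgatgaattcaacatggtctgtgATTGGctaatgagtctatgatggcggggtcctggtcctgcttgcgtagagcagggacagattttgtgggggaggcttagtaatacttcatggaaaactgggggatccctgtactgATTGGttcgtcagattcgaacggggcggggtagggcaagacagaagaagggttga
Fasn: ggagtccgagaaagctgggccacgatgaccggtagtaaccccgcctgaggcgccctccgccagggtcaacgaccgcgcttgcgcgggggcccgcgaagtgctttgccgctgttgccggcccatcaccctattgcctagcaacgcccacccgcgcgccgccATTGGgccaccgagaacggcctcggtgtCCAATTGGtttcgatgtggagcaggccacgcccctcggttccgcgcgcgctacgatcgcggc
Ebp, which fell, and Fasn hold CCAAT as do Hmgcs1, Cyp51 and Lss, which rose. Over the 300 bases of each promoter (250 before and 50 after the start), CCAAT was found in 21 of the 25 members in the table (84%) and in 9 of 9 squalene to cholesterol genes, beside 43.5% of 8667 tested genes and 41.1% of all 27025 genes. TCACNCCAC was found in 1 member (4%), Hmgcs1, and in 1.47% of tested genes and 1.44% of all genes. Its shorter core ACNCCAC was found in 6 members (24%), beside 18.5% of tested genes and 17.1% of all genes. CACGTG, the E-box, was found in 5 members (20%), Dhcr7, Hsd17b7, Insig1, Sc5d and Scap, and in 12.1% of tested genes and 8.09% of all genes. CCAAT and TCACNCCAC do not overlap in the Hmgcs1 promoter, while in Fasn a CCAAT and an ATTGG overlap. These are matches of letters only. Stard4, Fdps, Fdft1, Scd1, Scd2 and Sqle are not in the table.

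Of the sensing and transport genes, Srebf2 rose a little and late. It read 118, 99.2, 75.9 and 120 CPM in 2iL, 172, 148, 145 and 131 CPM at 96 h and 141, 150, 178 and 137 CPM at 120 h. The late libraries all lay above 2iL, by 0.53 ± 0.13 at 96 h (adjusted p = 0.00135) and 0.55 ± 0.13 at 120 h (adjusted p = 0.000777). Srebf1 was low, at 12.6, 8.59, 13.5 and 9.65 CPM in 2iL, 8.51, 5.18, 5.67 and 4.15 CPM at 24 h and 6.71, 10.9, 8.56 and 10.7 CPM at 120 h. All its 24 h libraries were below those of 2iL, but it passed in none of the 12 comparisons (-0.91 ± 0.38 at 24 h, adjusted p = 0.103), and exons of Rai1 lie on the opposite strand at its 3′ end. Insig1 read 91.8, 56.7, 36.4 and 50 CPM in 2iL, 82.7, 76.4, 41.6 and 33.9 CPM at 24 h, 75.7, 56.3, 66.5 and 54.6 CPM at 48 h, 56.4, 27.1, 43.6 and 45 CPM at 96 h, and 53.3, 50.7, 51.3 and 46.9 CPM at 120 h. The 2iL libraries spanned most of the values of the other groups, and Insig1 passed at none of the withdrawal times (-0.45 ± 0.25 at 96 h, adjusted p = 0.154, and -0.21 ± 0.25 at 120 h, adjusted p = 0.513). Insig1 is itself a known target of the SREBP factors.

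Stard4, a carrier that moves cholesterol between membranes and is also a known SREBP target, also rose. It went from 38.5 ± 7.96 CPM in 2iL to 77 ± 5.3 CPM at 48 h (SD, n = 4), by 1.00 ± 0.17 (adjusted p = 1.84e-05), and by 0.95 ± 0.16 at 120 h (adjusted p = 1.45e-05). Its 24 h change of 0.48 ± 0.17 (adjusted p = 0.0495) was lost without any of 6 of the 8 libraries, with an adjusted p of up to 0.189 without the 24 h library of experiment 1. Scap read 23.7, 9.87, 17.3 and 16.5 CPM in 2iL and 19.8, 31.3, 26.6 and 29.5 CPM at 120 h. These groups overlapped, and its rise of 0.67 ± 0.25 (adjusted p = 0.025) was lost without the 2iL library of experiment 2 (adjusted p = 0.13) or the 120 h library of experiment 2 or 4 (0.0755 and 0.0623), and reached 0.05 without the 2iL library of experiment 4.

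The fatty acid genes moved in different directions, with a median change against 2iL between -0.15 at 24 h and 0.18 at 120 h. Fasn, the synthase that builds palmitate, read 358, 383, 496 and 443 CPM in 2iL, 278, 390, 312 and 339 CPM at 24 h, 512, 480, 471 and 413 CPM at 48 h and 534, 557, 632 and 575 CPM at 96 h. It dipped and then climbed above 2iL, with the 96 h libraries above all of 2iL. Fasn fell by 0.35 at 24 h (SE 0.12, adjusted p = 0.0378) and rose by 0.45 ± 0.12 at 96 h (adjusted p = 0.00202). The fall was lost without any of 5 of the 8 libraries, with an adjusted p of up to 0.155 without the 2iL library of experiment 3. At 120 h it read 469, 528, 476 and 422 CPM and overlapped with 2iL again.

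Scd1 and Scd2 encode desaturases that make monounsaturated fatty acids. Scd1 read 183, 251, 202 and 194 CPM in 2iL and 305, 216, 276 and 200 CPM at 120 h, overlapping, and passed in none of the 12 comparisons (0.27 ± 0.14 at 120 h, adjusted p = 0.126). Scd2 read 292, 290, 219 and 238 CPM in 2iL, 212, 204, 190 and 155 CPM at 48 h and 290, 327, 426 and 326 CPM at 120 h. The 48 h libraries were all below 2iL and below 120 h. Scd2 fell by 0.45 at 48 h (SE 0.16, adjusted p = 0.0347) and was above 2iL by 0.40 ± 0.16 at 120 h (adjusted p = 0.0383), and between those times it rose by 0.85 ± 0.16 (adjusted p = 9.39e-05). Each change against 2iL was lost without any of 4 of the 8 libraries, with adjusted p of up to 0.116 at 48 h without the 48 h library of experiment 4 and 0.181 at 120 h without the 120 h library of experiment 3.

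Elovl6, which lengthens palmitate, fell late. It read 129, 112, 131 and 141 CPM in 2iL, 125, 110, 119 and 107 CPM at 48 h and 87.3, 90.4, 76.1 and 64.3 CPM at 120 h. All 120 h libraries were below every library of 2iL and of 48 h, with a fall of 0.69 (SE 0.13, adjusted p = 4.01e-05) against 2iL and of 0.54 (SE 0.13, adjusted p = 0.00129) against 48 h. Acly, which makes cytosolic acetyl-CoA from citrate, read 247, 213, 228 and 203 CPM in 2iL and 241, 224, 221 and 225 CPM at 96 h, overlapping, and passed at no withdrawal time (0.03 ± 0.12 at 96 h, adjusted p = 0.859). Acss2, which makes acetyl-CoA from acetate, had few counts, at 3.86, 3.01, 5.26 and 6.81 CPM in 2iL, 1.56, 1.97, 1.22 and 0.613 CPM at 48 h and 5.22, 2.48, 8.56 and 4.91 CPM at 120 h. Its 48 h libraries lay below every library of 2iL and of 120 h, with a change of -1.73 ± 0.65 against 2iL (adjusted p = 0.0443) that was lost without any of 6 of the 8 libraries (adjusted p up to 0.114 without the 48 h library of experiment 4). It rose by 1.91 ± 0.64 from 48 h to 120 h (adjusted p = 0.0181), a call lost without the 48 h library of experiment 4 (adjusted p = 0.0572) or the 120 h library of experiment 3 (0.0768). Acaca, which makes malonyl-CoA, rose by 0.61 ± 0.23 at 120 h (adjusted p = 0.0279), and this was lost without any of 4 of the 8 libraries, with an adjusted p of up to 0.116 without the 2iL library of experiment 1.

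From 48 h to 120 h 9 members (30%) rose and 1 (3.33%) fell, against 19.2% and 18.4% of all genes tested. The risers were Acat2, Hmgcs1, Ggps1, Cyp51, Nsdhl, Sc5d, Srebf2, Acss2 and Scd2, and Elovl6 fell. The calls of Acat2 and Srebf2 depended on single libraries, Acat2 on that of 120 h experiment 3 (adjusted p = 0.0529 without it) and Srebf2 on that of 48 h experiment 3 (0.0662) and 120 h experiment 3 (0.126). Scaling to library totals alone moved the median of all genes in this comparison by 0.15, and the member count stayed at 10.

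In 48 h + 2iL, where 2iL had been back for 24 h, 4 of 7 mevalonate genes and 3 of 11 squalene to cholesterol genes were lower than at 48 h. The mevalonate sum was 924 ± 34.9 CPM in 48 h + 2iL against 1380 ± 212 CPM at 48 h (SD, n = 4), and all 4 libraries lay below those of 48 h. Against 48 h 9 members fell and 2 rose, while 7.67% of all genes tested fell and 7.24% rose. Those that fell were Hmgcs1, Mvk, Mvd, Fdps, Sqle, Lss, Msmo1, Stard4 and Acly, and those that rose were Ebp and Scd2. No group without 2iL at the same total time is analysed here, so time and the return cannot be told apart in this comparison.

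Sqle read 85.4, 98.4, 86.4 and 118 CPM in 48 h + 2iL against 165, 188, 172 and 171 CPM at 48 h. These values lay around those of 2iL and below every 48 h library, with a change of -0.84 ± 0.13 (adjusted p = 1.33e-05). Msmo1 read 300, 293, 200 and 175 CPM at 48 h and 160, 157, 124 and 117 CPM after the return, again without overlap (-0.80 ± 0.21, adjusted p = 0.00774). Mvk read 33.4, 40.8, 39.1 and 42.4 CPM after the return, below all 48 h libraries (-0.72 ± 0.18, adjusted p = 0.00493). Mvd read 209, 235, 167 and 162 CPM, which overlapped with 48 h (-0.88 ± 0.27, adjusted p = 0.0269). Hmgcs1 read 270, 250, 396 and 350 CPM and also overlapped with 48 h (-0.48 ± 0.14, adjusted p = 0.0132). Pmvk changed by -0.66 (adjusted p = 0.0968), or with the experiment as a block by -0.62 (adjusted p = 0.0288).

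Ebp did the reverse and read 96.6, 81.6, 122 and 104 CPM in 48 h + 2iL, above every 48 h library and within or above the range of 2iL. Its rise of 1.44 ± 0.21 (adjusted p = 5.72e-06) was 2.72-fold. Scd2 read 266, 259, 297 and 223 CPM, all above 48 h, and its rise of 0.46 ± 0.16 just passed before rounding (adjusted p = 0.05) and was lost without any of 7 of the 8 libraries (adjusted p up to 0.161). Acly read 175, 142, 170 and 153 CPM, below every library of 48 h and of 2iL, and fell by 0.45 (SE 0.12, adjusted p = 0.0119). Without the 48 h + 2iL library of experiment 2 there were 7 calls. The calls of Hmgcs1, Mvd, Fdps, Lss, Acly and Scd2 were lost without at least 1 library, with the highest adjusted p at 0.104 for Hmgcs1 without the 48 h library of experiment 3, 0.127 for Mvd without that of 48 h experiment 1, 0.13 for Fdps without that of 48 h experiment 2, and 0.0526 for Lss and 0.0618 for Acly without that of 48 h + 2iL experiment 2.

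**Figure D4:**
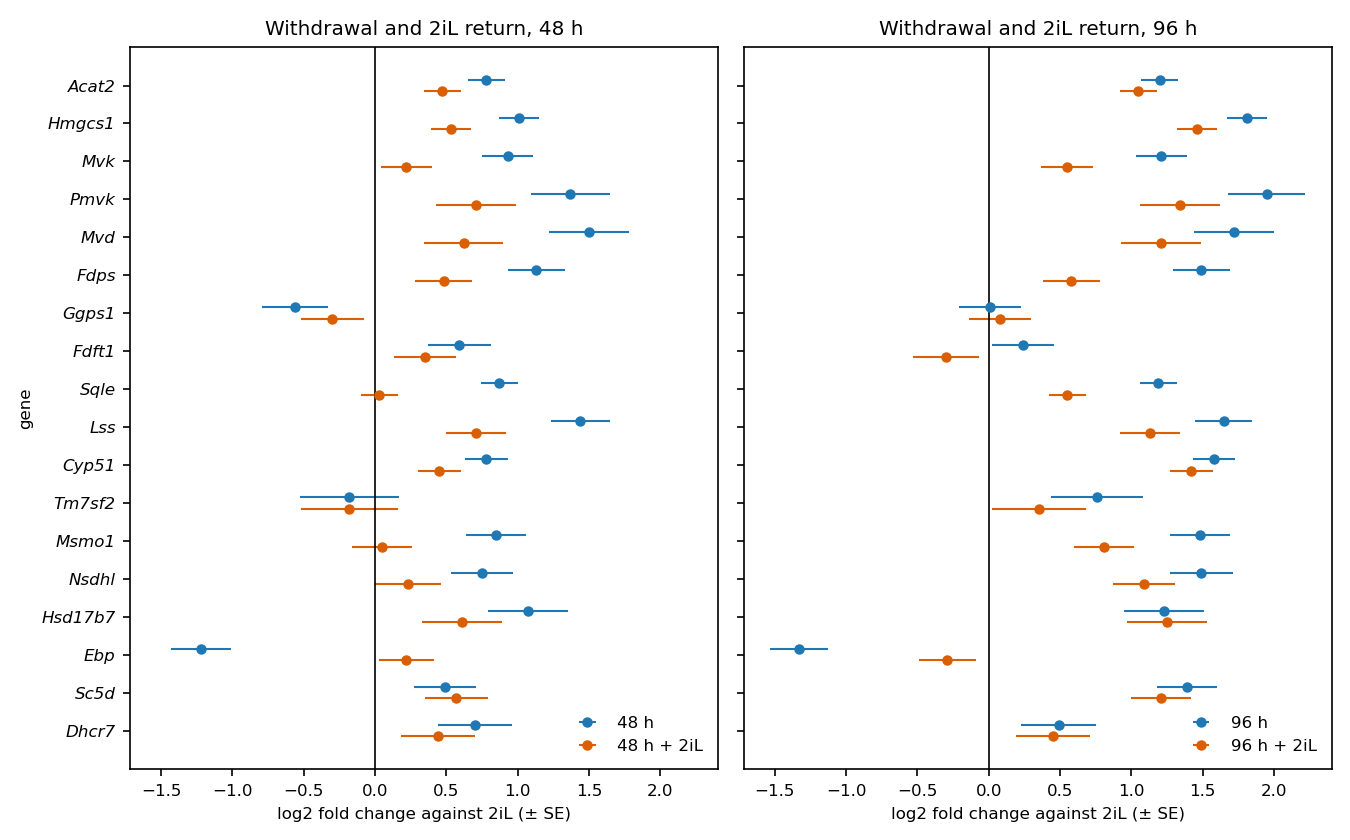
Log2 fold change against 2iL with its standard error (horizontal axes) of the 18 tested mevalonate and squalene to cholesterol genes (vertical axis), before (blue) and after (orange) 24 h of returned 2iL, after 48 h (left) and 96 h (right) without it. Most orange points lie nearer 0 than the blue after both times. Sqle is at 0.03 against 0.87 after 48 h and at 0.55 against 1.19 after 96 h. Hmgcs1 is at 0.53 against 1.01 after 48 h and at 1.46 against 1.81 after 96 h. After 96 h 9 orange points stay above 1.

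In 96 h + 2iL 7 members differed from 96 h. Against 96 h 5 members fell and 2 rose, while 5.23% of all genes tested fell and 4.02% rose. Mvk, Fdps, Sqle, Msmo1 and Elovl6 fell, and Ebp and Scd2 rose. Without the 96 h + 2iL libraries of experiments 3 and 4 there were 4 calls, 3 lower and 1 higher. Fdps read 157, 171, 149 and 175 CPM in 96 h + 2iL, all below 96 h, and fell by 0.92 (SE 0.19, adjusted p = 0.00194). Without both libraries its change was -0.90 (adjusted p = 0.0239). Sqle read 124, 133, 156 and 146 CPM, also below every 96 h library but above 2iL (-0.64 ± 0.12, adjusted p = 0.000769, and -0.76 with 0.00261 without both). Mvk read 44.6, 57.3, 46.2 and 47.8 CPM, below 96 h (-0.65 ± 0.17, adjusted p = 0.0129, and -0.59 with 0.129 without both). Msmo1 read 229, 216, 271 and 228 CPM, below 96 h (-0.67 ± 0.20, adjusted p = 0.0338, and -0.75 with 0.0935 without both). Elovl6 fell by 0.39 (SE 0.13, adjusted p = 0.0486), and without both its change was -0.37 (adjusted p = 0.23).

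Hmgcs1 read 516, 507, 717 and 670 CPM in 96 h + 2iL, the libraries of experiments 3 and 4 being the higher ones. Against 96 h it changed by -0.35 (adjusted p = 0.0972), or with the experiment as a block by -0.36 (adjusted p = 0.039), and without both libraries by -0.58 (adjusted p = 0.0237). Pmvk changed by -0.60 (adjusted p = 0.147, and 0.0287 with the block), and by -0.62 without both (adjusted p = 0.322). Ebp read 82.1, 96.1, 44.8 and 60.2 CPM, high in experiments 1 and 2 and lower in 3 and 4, the library of experiment 3 lying below the highest of 96 h. It rose by 1.05 ± 0.21 (adjusted p = 0.000961), and by 1.38 without both libraries (adjusted p = 4.79e-05). Scd2 read 380, 369, 478 and 330 CPM, all above 96 h, and rose by 0.64 ± 0.16 (adjusted p = 0.00737, and 0.59 with 0.0562 without both). Without the 96 h library of experiment 2 or 4 there were 4 calls, and the adjusted p of Mvk was then 0.0508 and 0.0577 and that of Msmo1 0.112 and 0.0728. The Msmo1 call was lost without any of 6 and the Elovl6 call without any of 7 of the 8 libraries.

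The 120 h group was collected after the same total time as 96 h + 2iL but without any return of 2iL, and against it 1 member rose and 0 fell, beside 1.28% and 1.34% of all genes tested. At an unadjusted p under 0.05 there were 6 members and 13.1% of all genes, and DESeq2 made 1 call. The riser was Ebp (0.83 ± 0.20, adjusted p = 0.0175), a call lost without the 120 h library of experiment 2 (adjusted p = 0.0685) or the 96 h + 2iL library of experiment 1 (0.0741) or 2 (0.157). Hmgcs1 changed by -0.40 (adjusted p = 0.121), or by -0.42 with the experiment as a block (adjusted p = 0.0347). Without the 96 h + 2iL libraries of experiments 3 and 4, 3 members passed, with Hmgcs1 (-0.64, adjusted p = 0.012) and Nsdhl (-0.86, adjusted p = 0.0408) lower and Ebp higher (1.15, adjusted p = 0.000582).

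The response to 2iL after 96 h was also set against that after 48 h in the same fit. Of the 30 members 0 differed in edgeR and 0 in DESeq2, beside 0.451% of all genes with a higher and 0.469% with a lower response. At an unadjusted p under 0.05 there was 1 member, Stard4 (0.53, adjusted p = 0.349), and 11.1% of all genes. The differences in response ranged from -1.06 for Acss2 to 0.53 for Stard4, with a standard error of 0.18 for Sqle and 0.87 for Acss2. Without both libraries 0 members differed, with differences from -0.77 for Srebf1 to 0.58 for Stard4 and a smallest adjusted p of 0.513. These values leave differences of such sizes undetected and do not show the responses to be alike.

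How far each group with returned 2iL remained from 2iL was compared directly. In 48 h + 2iL 5 members were higher than in 2iL and 2 lower, against 6.14% and 5.49% of all genes tested. The higher ones were Acat2, Hmgcs1, Lss, Cyp51 and Scap, and the lower ones Acly and Elovl6. Scap read 33.9, 32.8, 31.2 and 34.4 CPM, all above 2iL (0.98 ± 0.24, adjusted p = 0.0068). Lss read 26.3, 16.8, 21.2 and 20 CPM, above 2iL in each library (0.71 ± 0.21, adjusted p = 0.023). Hmgcs1 was higher by 0.53 ± 0.14 (adjusted p = 0.00879). Elovl6 read 78.4, 100, 91 and 104 CPM, all below 2iL (-0.46 ± 0.13, adjusted p = 0.016), and Acly was lower by 0.48 (SE 0.12, adjusted p = 0.00917). Without the 48 h + 2iL library of experiment 3 there were 2 calls, Scap and Acly, with an adjusted p of 0.0775 for Hmgcs1, 0.288 for Cyp51, 0.059 for Acat2, 0.0559 for Lss and 0.0512 for Elovl6. Without the 2iL library of experiment 4 there were 4 calls, with 0.0851 for Lss, 0.117 for Cyp51 and 0.0538 for Elovl6. With the experiment as a block 10 passed, the additional ones being Pmvk (0.77, adjusted p = 0.0111), Mvd (0.64, adjusted p = 0.0104) and Fdps (0.51, adjusted p = 0.0167).

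In 96 h + 2iL 19 members were higher than in 2iL and 2 lower, against 21.4% and 19.5% of all genes tested, and without the libraries of experiments 3 and 4 it was 15 and 2. Hmgcs1 stayed 2.75-fold above 2iL (1.46 ± 0.14, adjusted p = 4.25e-10), with a change of 1.23 without those libraries (adjusted p = 1.31e-07). Cyp51 read 207, 209, 208 and 240 CPM, more than any 2iL library (1.42 ± 0.15, adjusted p = 3.95e-09). Pmvk read 84, 107, 109 and 87.5 CPM, also above 2iL (1.34 ± 0.28, adjusted p = 0.000203). Without the libraries of experiments 3 and 4 the changes were 1.38 for Cyp51 (adjusted p = 3.37e-07) and 1.33 for Pmvk (adjusted p = 0.00194), while Fdps, Srebf2, Acaca and Fasn were not called (adjusted p = 0.0601, 0.0688, 0.756 and 0.0631). Leaving out 1 library ended the calls of Mvk, Fdps, Acaca and Fasn at adjusted p of up to 0.0759, 0.0805, 0.198 and 0.188. The lower ones were Elovl6, at 76, 84.2, 73 and 83.2 CPM (-0.70 ± 0.13, adjusted p = 4.93e-05), and Insig1, at 34.7, 27.2, 47.7 and 28.6 CPM (-0.76 ± 0.25, adjusted p = 0.0164). Elovl6 did not overlap with 2iL and Insig1 did, and the Insig1 call was lost without the 2iL library of experiment 1 (adjusted p = 0.147) or the 96 h + 2iL library of experiment 2 (0.0658). Without the libraries of experiments 3 and 4 Elovl6 changed by -0.67 (adjusted p = 0.00246) and Insig1 by -0.91 (adjusted p = 0.027). Ebp did not pass (-0.29 ± 0.20, adjusted p = 0.259, and 0.05 with 0.887 without both). Acly changed by -0.29 (adjusted p = 0.0602), or by -0.28 with the experiment as a block (adjusted p = 0.0423) and by -0.32 without both (adjusted p = 0.133).

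The direct comparison of 96 h + 2iL with 48 h + 2iL was added after seeing the data. It found 10 members higher and 1 lower, against 12.9% and 11.2% of all genes tested. The groups differ in time without 2iL, in total time and in the level before the return, which cannot be told apart here. At 48 h and 96 h the means before the return were 442 and 768 CPM for Hmgcs1 and 138 and 242 CPM for Cyp51. They were 31.6 and 52.8 CPM for Nsdhl and 36.5 and 28.6 CPM for Fdft1. Hmgcs1 was higher by 0.93 ± 0.14 (adjusted p = 5.61e-06), Cyp51 by 0.97 ± 0.15 (adjusted p = 9.2e-06) and Nsdhl by 0.86 ± 0.22 (adjusted p = 0.00337). Nsdhl read 37.5, 25.2, 48.2 and 50.3 CPM in 96 h + 2iL and 19.7, 16.8, 27 and 24.7 CPM in 48 h + 2iL, so that 96 h + 2iL was higher within each experiment, while its lowest library, that of experiment 2, lay below the highest of 48 h + 2iL, that of experiment 3. Fdft1 was lower, at 17.6, 19, 22.9 and 19.2 CPM against 24.8, 31.1, 29.9 and 37.7 CPM (-0.65 ± 0.23, adjusted p = 0.0345), a call lost without any of 6 of the 8 libraries (adjusted p up to 0.129). The calls of Sc5d and Stard4 were each lost without any of 4 (adjusted p up to 0.109 and 0.117). Without the 96 h + 2iL libraries of experiments 3 and 4, 3 calls remained, Acat2 (0.48, adjusted p = 0.0425), Hmgcs1 (0.70, adjusted p = 0.00215) and Cyp51 (0.92, adjusted p = 0.000612). The change of Nsdhl was then 0.50 (adjusted p = 0.225) and that of Fdft1 -0.75 (adjusted p = 0.107). With the experiment as a block Pmvk (0.65, adjusted p = 0.0136) and Mvd (0.59, adjusted p = 0.00865) passed in addition.

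Other genes that act on the same pathway were counted from lists, to be read beside the 24.6% of all genes tested that rose and the 22.6% that fell at 120 h. Among the genes that process or retain SREBP factors and sterol sensors, Insig2, the relative of Insig1, fell by 1.18 at 120 h. Of 12 further genes of isoprenoid and sterol metabolism, 1 rose and 1 fell at 120 h. Soat1, which esterifies cholesterol for storage, rose from 15.2 ± 6.35 to 130 ± 22.4 CPM (SD, n = 4), by 3.10, and Fntb, a subunit of the farnesyltransferase, fell by 1.38. Of 8 tested genes of lipid uptake and efflux, 2 rose and 4 fell at 120 h. The lipoprotein receptors Lrp8 and Vldlr rose by 3.14 and 2.76, and the efflux pump Abca1 fell by 2.08. Among 20 tested further genes of fatty acid and lipid synthesis 8 rose and 4 fell at 120 h.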

How the data were processed

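Per the submitters' processing notes the tools were HTSeq, bcl2fastq and STAR 2.6.0a, and the build was mm10; their roles and order are not stated. Raw counts for 31053 genes were deposited as 1 file a library, and the deposited series table holds CPM, which equalled the CPM computed from the count files within 1e-06 in 28 of 28 columns (30386 genes). Whether the counts, called unique in the deposited names, are per alignment or per molecule, and whether strand was used, is not given in the sources used here. HTSeq's summary rows, which name no gene, were left out of library sizes, and those for multiply aligned reads held 52.3% to 60.1% of what the files list. The CPM table was used for symbols and this check only, and 0 columns of per-sample values were left unused.

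Counts were fitted with edgeR 4.0.16 in R 4.3.3 (filterByExpr by group with at least 10 counts and 15 in total, TMM, quasi-likelihood, 1 mean per group, all 28 libraries, two-sided), and p-values were adjusted by Benjamini-Hochberg over 11080 genes. Standard errors are approximate, from the change and the root of its F value. The code was tested on simulated counts. In the 42 replicate pairs chi-square ranged from 2.39 to 10.3 a gene, so no pair agreed within sampling noise. Members and lists were chosen with earlier results of these data known. Any member may be named; given by library are the 3 with the largest called rise and fall in each comparison and 8 fixed genes, and up to 3 called genes are named from each other list. The counts of the list of SREBP processing genes are not reported here. Levels are not compared between genes, since tags were counted at 3′ ends only.

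Titles give each library an experiment number, read as a shared experiment, so the experiment was also fitted as a block. Deviations from the group means correlated at a mean r of 0.0862 over 84 pairs of the same experiment, against -0.0285 between experiments. By mean correlation with the libraries of other groups, 24 of 28 libraries were closest to their own experiment. Alternatives were DESeq2 1.42.0, RLE size factors, library totals, other filters, only the groups compared, the block, and leaving out each library. Positions of genes come from GENCODE M21 (GRCm38), and promoters from RefSeq on GRCm38.p6.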

Additional observations from a re-analysis of the deposited data

Results flagged for a closer look

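A single library stood apart from the other 3 of its group in 6 of 217 sets of 4 libraries, by the gap to its neighbour divided by the range of the group (Dixon's ratio, at the 95% level). Chance flags about 1 in 20 groups. Hmgcs1 read 261 CPM in the 2iL library of experiment 1 against 204 to 208 CPM in the others, and Fdft1 read 40.1 CPM in the same library against 17.2 to 19.9 CPM. Idi1, with 1 to 10 counts per library, read 4.65 CPM in the 48 h + 2iL library of experiment 4 against 1.52 to 1.68 CPM. Cyp51 read 240 CPM in the 96 h + 2iL library of experiment 4 against 207 to 209 CPM. Acly read 192 CPM in the 120 h library of experiment 2 against 198 CPM in each of the others, and Acaca read 54.5 CPM in the 120 h library of experiment 1 against 58.9 to 59.1 CPM. In Acly and Acaca the gap is small beside the level and the other 3 libraries were almost equal.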

How the results depend on the processing

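No member's called change reversed its sign under any alternative run for it. With the experiment as a replicate block the member counts were 13 (24 h vs 2iL), 19 (48 h), 17 (96 h), 21 (120 h), 10 (120 h vs 48 h), 12 (48 h + 2iL vs 48 h), 9 (96 h + 2iL vs 96 h), 2 (96 h + 2iL vs 120 h), 10 (48 h + 2iL vs 2iL), 22 (96 h + 2iL vs 2iL) and 13 (96 h + 2iL vs 48 h + 2iL); the block added 15 calls of members and changed no other call. Fitting only the groups compared gave 4 calls at 24 h and 0 for 96 h + 2iL vs 120 h, where library totals gave 2. Leaving out 1 library at a time gave 3 to 11 calls at 24 h, 7 to 11 for 48 h + 2iL vs 48 h, 4 to 8 for 96 h + 2iL vs 96 h, 0 to 2 for 96 h + 2iL vs 120 h and 2 to 8 for 48 h + 2iL vs 2iL. Without the 96 h + 2iL libraries of experiments 3 and 4, an alternative chosen after seeing the data, there were 4 calls vs 96 h, 3 vs 120 h and 3 vs 48 h + 2iL. The cause of these moves was not tested. Calls of members that held under every alternative were 3 of 9 at 24 h, 13 of 18 at 48 h, 17 of 17 at 96 h and 17 of 21 at 120 h, 7 of 10 for 120 h vs 48 h, 5 of 11 for 48 h + 2iL vs 48 h, 3 of 7 for 96 h + 2iL vs 96 h, 0 of 1 vs 120 h, 2 of 7 for 48 h + 2iL vs 2iL, 15 of 21 for 96 h + 2iL vs 2iL and 3 of 11 between the groups with returned 2iL. Over all genes, the count for 96 h + 2iL vs 120 h (291) was 493 with no filter and 115 with only the groups compared, and that for the difference of the 2iL responses (102) was 168 with DESeq2, 321 with no filter and 194 with the block. Without the 96 h + 2iL libraries of experiments 3 and 4 these counts were 462 and 25, that vs 96 h went from 1024 to 526 and that vs 48 h + 2iL from 2672 to 1111. Single libraries mattered as well: 658 vs 96 h without the 96 h library of experiment 2, 158 to 450 vs 120 h, 49 to 136 for the difference of responses, and 759 against 1288 for 48 h + 2iL vs 2iL without the 48 h + 2iL library of experiment 3. Library totals moved the median of all genes by 0.12 at 120 h and by 0.15 for 120 h vs 48 h. Among the members, counts were lowest for Idi1, Acss2 and Srebf1, and the cause of this was not tested.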

Other observations

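Among genes of fatty acid oxidation, the breakdown counterpart of the synthesis genes, falls outnumbered rises from 48 h of withdrawal on. Of 17 tested genes 7 fell and 0 rose at 48 h, 7 fell and 2 rose at 96 h, and 8 fell and 3 rose at 120 h. Of all genes tested 13.2% fell and 14.6% rose at 48 h, 19.2% and 21.9% at 96 h, and 22.6% and 24.6% at 120 h. Cpt1a, which admits long-chain fatty acids to mitochondria, went from 67.5 ± 12.1 CPM in 2iL to 2.92 ± 1.89 CPM at 120 h (SD, n = 4), a change of -4.46 ± 0.44 (edgeR adjusted p = 6.62e-10). Slc25a20, the carnitine carrier of the inner membrane, changed by -2.24 ± 0.36, and Acadm, a medium-chain dehydrogenase, by -2.11 ± 0.17. The median change of the 17 genes at 120 h was -0.55 beside 0.01 for all genes. With 2iL back after 48 h, Cpt1a reached 39.7 ± 7.73 CPM, and after 96 h it read 19, 14.4, 0.973 and 8.69 CPM in experiments 1 to 4. The mean there was 10.8 ± 7.77 CPM, or 16.7 CPM without the libraries of experiments 3 and 4.

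Among the further genes of fatty acid handling, Acsl4 and Acsl5, which attach CoA to fatty acids, and Mid1ip1, an activator of acetyl-CoA carboxylase, rose at 48 h. Acsl5 changed by 2.87 ± 0.35, Mid1ip1 by 2.38 ± 0.39 and Acsl4 by 2.13 ± 0.23 against 2iL (edgeR adjusted p = 9e-08, 1.54e-05 and 1.49e-08). After 24 h of returned 2iL they fell by 1.65, 1.13 and 1.64. In that comparison 3 of 20 tested genes of this list fell and 1 rose, beside 7.67% and 7.24% of all genes tested.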
